A study of Mus musculus with 8 samples.

Results

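The 38 genes described here encode the proteins with which a heart muscle cell takes up fatty acids, carries them into mitochondria and oxidizes them. They were chosen by name and not by a threshold on a measured value, though with earlier results of these data known. They are 38 of the 11367 gene entries in the expression table. Each of the 38 has 1 entry, as the rule takes measured genes only. All entries of the table had passed the authors' filter of a mean of at least 0.5 FPKM in 1 of the groups. The unit FPKM counts sequenced fragments per length of transcript and per number of fragments mapped in that library.

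Fatty acids reach cardiomyocytes after lipoprotein lipase frees them from circulating triglyceride, and they enter with the help of the membrane protein CD36 and of fatty acid transport proteins. Acyl-CoA synthetases join them to coenzyme A, the carnitine shuttle carries them across the mitochondrial membranes, and a repeated cycle of dehydrogenation, hydration, a further dehydrogenation and thiolysis shortens them. The healthy adult heart draws most of its energy from this pathway, and the nuclear receptor PPARalpha, encoded by Ppara, drives transcription of many of its genes.

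RNA sequencing was done on 8 libraries of ventricular cardiomyocytes isolated from hearts of C57BL/6 mice (C57BL/6J in the methods) and cultured for 24 hours. Of these, 4 were kept in control M199 medium and 4 in conditioned medium. The conditioned medium was M199 in which CCR2+ cardiac macrophages, sorted from Ccr2gfp/+ mice 4 weeks after transverse aortic constriction (TAC, a surgical pressure overload), had been kept for 24 hours. Both media contained Blebbistatin, which blocks myosin and so contraction, with insulin-transferrin-selenium (ITS) and the supplement CD lipid, so lipid was added to all 8 cultures. FBS is named in the methods for the macrophage culture only, so a difference in serum cannot be told apart from one in macrophage products. The methods describe the mice of the study as males about 8 to 12 weeks old. Neither source says whether each library came from its own animal, so that p values describe only how these libraries vary, possibly for technical reasons.

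The library of conditioned-medium replicate 4 stood apart from the others. The 13 mitochondrially encoded genes held 63.0% of its summed FPKM, against 30.2% to 40.7% in the control libraries and 30.8% to 35.1% in the other 3 conditioned-medium libraries. On the log2(FPKM + 1) scale it correlated with the other 7 libraries at 0.908 to 0.942, and those 7 with one another at 0.969 to 0.991. The main comparisons are therefore given with and without this library. The depth of each library could not be known from FPKM. All 16 cardiomyocyte markers were measured, with a summed level of 9477 to 14542 FPKM in control medium, 9992 to 12461 FPKM in the first 3 conditioned-medium replicates and 5363 FPKM in replicate 4. The 16 endothelial markers were also present, and their sum was 141 to 309 FPKM in control medium against 317 to 570 FPKM in conditioned medium, without overlap. The macrophage markers held 12 entries of 11 of the 16 listed genes, and their sum was 24.6 to 185 FPKM in control and 157 to 179 FPKM in conditioned medium. Lyz2 made up most of these sums (13.4 to 128 FPKM in control and 106 to 119 FPKM in conditioned medium). All 12 macrophage entries had a log2 fold change (conditioned minus control) above 0, with a median of 0.71. All 16 endothelial markers were also above 0, with a median of 0.71, against 0.02 over all genes. Ccr2, Cd163, Cx3cr1, Fcgr1 and Ptprc are not among the entries analysed here. The 16 fibroblast markers summed to 39.7 to 98.4 FPKM and to 91.0 to 106 FPKM, and 10 of 11 mural markers to 126 to 199 FPKM and to 98.1 to 164 FPKM. Acta2 was a large part of the mural sums (90.5 to 141 FPKM in control), with a log2 fold change of -0.61. Of the 10 mural markers, 8 had a log2 fold change above 0 and 2 below, with a median of 0.50 (0.45 without replicate 4). Of the 16 fibroblast markers, 15 were above 0 and 1 below, with a median of 0.39. Of 11 adipocyte markers 4 had an entry, Adipoq and Plin1 not among them, with sums of 26.8 to 61.3 FPKM and 50.4 to 147 FPKM. Fabp4 made up most of these sums (19.6 to 51.0 FPKM in control and 40.9 to 138 FPKM in conditioned medium). Of these 4 markers, 3 had a log2 fold change above 0 and 1 below, with a median of 0.19.

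No gene of fatty acid uptake or oxidation passed the test between the media. With limma, 0 of the 38 members were higher and 0 were lower when the adjusted p had to be under 0.05, where 0.554% of all genes were higher and 0% lower. At an unadjusted p under 0.05, the acyl-CoA synthetase gene Acsl5 was the 1 member higher (8.78% of all genes) and the triglyceride lipase gene Pnpla2 the 1 member lower (0.845% of all genes). The same 2 genes were the only members whose conditioned-medium libraries lay all above (5.08% of all genes) or all below (1.46% of all genes) the 4 control libraries. The log2 fold change was below 0 for 32 members and above 0 for 6, against 5240 below and 6127 above among all 11367 genes. Its median was -0.34 for the members and 0.02 for all genes. Without conditioned-medium replicate 4 the median of the members was -0.07 and that of all genes 0.12. Then 24 members were below 0 and 14 above, against 2653 of all genes below and 8713 above. The members thus still lay lower than all genes without that library. Without that library the adjusted p called 0 members higher and 0 lower (0.757% and 0.0176% of all genes), and the unadjusted p again called Acsl5 higher and Pnpla2 lower (9.79% and 0.809% of all genes). These shares over all genes depend on scaling. Of the genes at an unadjusted p under 0.05, 91.2% were higher, against 59.0% with median-of-ratios size factors, 48.3% with quantile normalization and 32.6% in an F test that includes library size. The members lower at that threshold then numbered 7 (6.02% of all genes), 6 (6.19% of all genes) and 6 (11.7% of all genes).

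**Figure D1:**
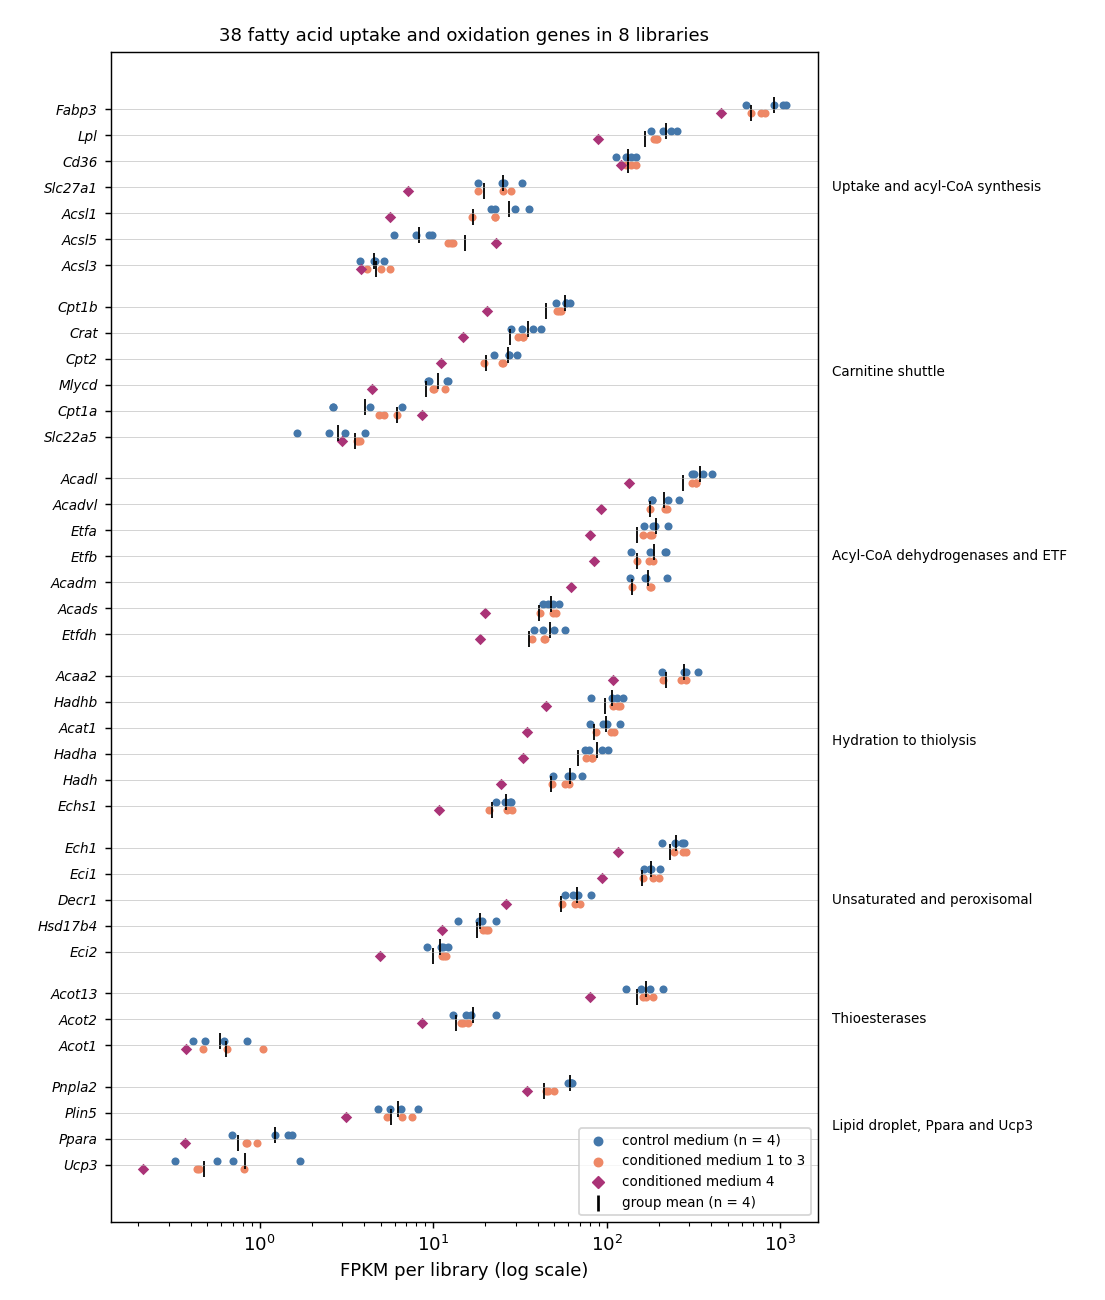
FPKM of each of the 38 genes (rows, grouped by role) in the 8 libraries on a logarithmic axis, with blue circles for control medium, orange circles for conditioned-medium replicates 1 to 3, purple diamonds for conditioned-medium replicate 4 and a bar at each group mean (n = 4). Replicate 4 is the lowest of the 8 libraries in 33 genes, while the other 3 conditioned-medium libraries lie within the control range in 22 (share over all genes not counted).

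The plot of FPKM by library shows where the negative median sits. Conditioned-medium replicate 4 was the lowest of the 8 libraries in 33 of the 38 members, against 50.2% of all genes, and the highest in 2, Acsl5 and Cpt1a. In 32 members it was under 60% of the mean of the other 3 conditioned-medium libraries, against 37.7% of all genes. The median member was at 44.8% of that mean, the median cardiomyocyte marker at 41.2% and the median of all genes at 68.6%. With each library rescaled to the same sum over nuclear-encoded genes, these medians were 67.7%, 62.3% and 104%. The genes of fatty acid use were thus low in that library to about the extent that sarcomere and other cardiomyocyte markers were, while its endothelial markers were at a median of 169% of that mean. In bulk RNA, fewer cardiomyocytes and less RNA per cardiomyocyte cannot be told apart. In conditioned-medium replicates 1 to 3, 22 of the 38 members lay wholly within the range of the control libraries. The share of all genes that did so was not counted, so this number only describes the members. The members together made up 1.54%, 2.25%, 2.02% and 2.05% of the nuclear-encoded FPKM in control replicates 1 to 4 and 1.63%, 1.84%, 1.83% and 1.32% in conditioned-medium replicates 1 to 4.

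**Figure D2:**
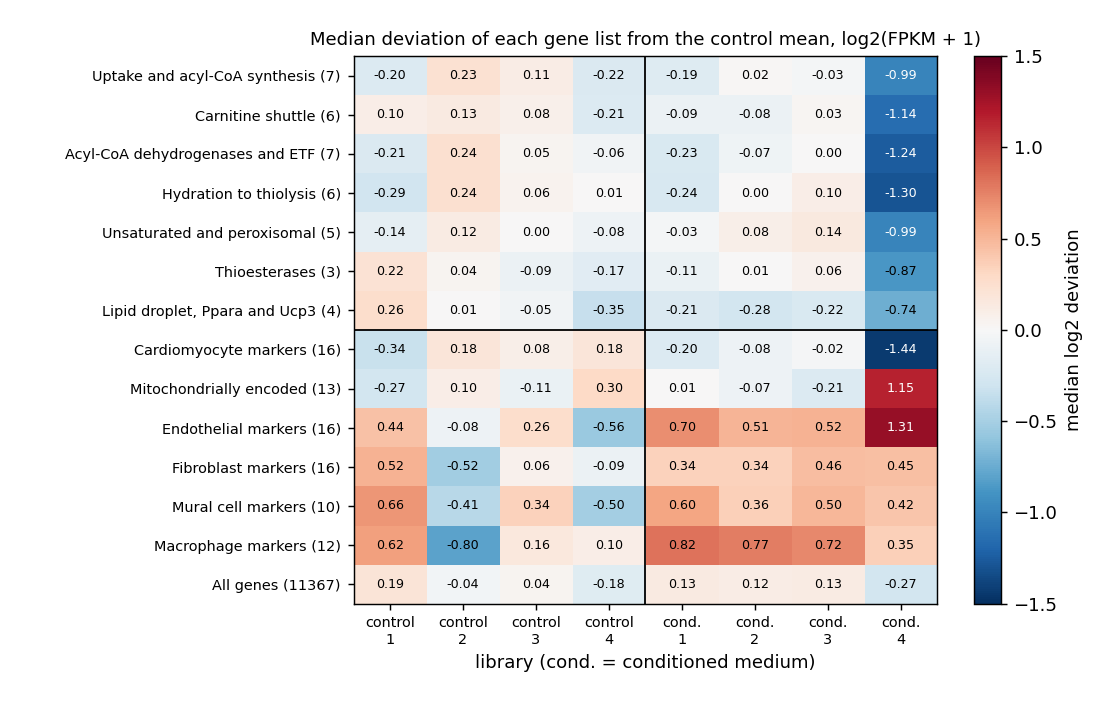
Median deviation of each gene list (rows, number of measured entries in parentheses) from its mean over the control libraries on the log2(FPKM + 1) scale, for each of the 8 libraries (columns), with red above and blue below 0. The 7 role groups of fatty acid genes are at -0.74 to -1.30 in conditioned-medium replicate 4, where the cardiomyocyte markers are at -1.44, the endothelial markers at 1.31 and the mitochondrially encoded genes at 1.15.

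The control libraries also differed among themselves, as the map of list medians shows. Control replicate 1 was below the control mean and control replicate 2 above it for the dehydrogenases, with medians of -0.21 and 0.24, and for the steps from hydration to thiolysis, with -0.29 and 0.24. The cardiomyocyte markers were at -0.34 and 0.18 in these libraries and the macrophage markers at 0.62 and -0.80. Their part in the differences between libraries was not tested.

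Among the 7 genes of uptake and acyl-CoA synthesis, the most abundant was Fabp3, which encodes the heart fatty acid-binding protein that carries fatty acids through the cytosol. Fabp3 was at 636, 1074, 925 and 1044 FPKM in control replicates 1 to 4 and at 677, 780, 817 and 454 FPKM in conditioned-medium replicates 1 to 4. The groups overlapped, the log2 fold change was -0.44 (95% interval -0.98 to 0.10, limma adjusted p = 0.614), and without conditioned-medium replicate 4 it was -0.25. A share of 21.7% of the 100-base words in its transcripts is also found in the pseudogene Fabp3-ps1, so some of its reads may have been divided. Lpl encodes lipoprotein lipase, which cardiomyocytes make and pass to the capillary surface. Control levels of Lpl were 179, 256, 235 and 212 FPKM, and those in conditioned medium 192, 196, 188 and 88.6 FPKM. The first 3 conditioned-medium values lay in the lower part of the control range, and the log2 fold change of Lpl was -0.46 (95% interval -1.04 to 0.11, limma adjusted p = 0.617) with all libraries and -0.19 without replicate 4.

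Cd36, which encodes the main membrane protein of fatty acid uptake, was nearly level in unscaled FPKM across all 8 libraries. It was at 138, 148, 129 and 113 FPKM in control medium and at 147, 138, 129 and 121 FPKM in conditioned medium. In conditioned-medium replicate 4 it was at 87.4% of the mean of replicates 1 to 3, and like Acsl3, Slc22a5, Cpt1a and Acsl5 it was not lowest there. With each library rescaled to the same nuclear-encoded sum, Cd36 was at 132% of that mean, where the median member was at 67.7%. The difference between the media was 0.02 on the log2 scale with a 95% interval of -0.35 to 0.39 (limma adjusted p = 0.975), and it was -0.01 with median-of-ratios size factors and -0.03 in the F test. Cd36 is also strongly expressed in the endothelium of heart capillaries, and the endothelial markers were highest in the same library; their part in the level of Cd36 was not tested. Slc27a1, which encodes the fatty acid transport protein FATP1, was at 25.6, 32.6, 25.1 and 18.1 FPKM in control and at 18.1, 25.2, 27.9 and 7.17 FPKM in conditioned medium. Its groups overlapped, and the log2 fold change moved from -0.48 (95% interval -1.25 to 0.29, limma adjusted p = 0.711) to -0.08 without replicate 4.

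The 3 acyl-CoA synthetase genes did not move alike. Acsl1 encodes the main long-chain acyl-CoA synthetase of the heart. It was at 21.6, 35.8, 29.5 and 22.6 FPKM in control replicates 1 to 4 and at 16.8, 22.8, 22.8 and 5.65 FPKM in conditioned medium. Acsl1 had the lowest log2 fold change of the 38, -0.79 (95% interval -1.58 to 0.01, limma adjusted p = 0.525), and it was -0.37 (95% interval -0.78 to 0.05, limma adjusted p = 0.492) without replicate 4. Acsl5 (ENSMUSG00000024981.6, plus strand, chr19:55251938-55297720 in GRCm38) encodes a synthetase of mitochondria and endoplasmic reticulum that is better known from intestine and liver. In control replicates 1 to 4 Acsl5 was at 9.85, 7.95, 9.51 and 5.95 FPKM, and in conditioned medium at 12.2, 12.7, 13.0 and 22.9 FPKM. All conditioned-medium libraries lay above all control libraries, with the 3 lower ones close together. Acsl5 had the highest value of the members, a log2 fold change of 0.77 (standard error 0.23, n = 4 and 4, limma adjusted p = 0.297). Without replicate 4 it was 0.57 (standard error 0.16, limma adjusted p = 0.2504), so the call at an unadjusted p under 0.05 did not rest on that library, while the adjusted test was not passed either way. Over all alternatives the adjusted p of Acsl5 ranged from 0.0162 with limma array weights to 0.968 without control replicates 2 and 4, a pair left out after seeing the data, where the unadjusted p was 0.0811 (limma). Acsl5 shares 8.31% of its exon bases with Zdhhc6 on the opposite strand. Within the control group Acsl5 and the endothelial markers had the same order (replicate 1, then 3, 2 and 4). The marker medians were 0.44, 0.26, -0.08 and -0.56. The medians over all genes (0.19, 0.04, -0.04 and -0.18) and of the mural markers (0.66, 0.34, -0.41 and -0.50) had that order too. That order was thus not particular to the endothelial markers. Acsl5 and the endothelial markers were both highest in conditioned-medium replicate 4, where the median over all genes was -0.27. The part of other cell types in the level of Acsl5 was not tested. Acsl3, a synthetase of lipid droplets and endoplasmic reticulum, had a log2 fold change of 0.02 (-0.05 with quantile normalization).

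The ratio of Acsl5 to Acsl1 within each library, chosen after the values were seen, does not depend on scaling between libraries. It was 0.456, 0.222, 0.323 and 0.263 in control replicates 1 to 4, and 0.724, 0.557, 0.570 and 4.06 in conditioned-medium replicates 1 to 4. The log2 ratio differed by 1.69 with all libraries and by 1.01 without conditioned-medium replicate 4. The pair joins the members with the highest and the lowest log2 fold change, so the choice fixed that the ratio differs between the media, and no test is given.

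**Figure D3:**
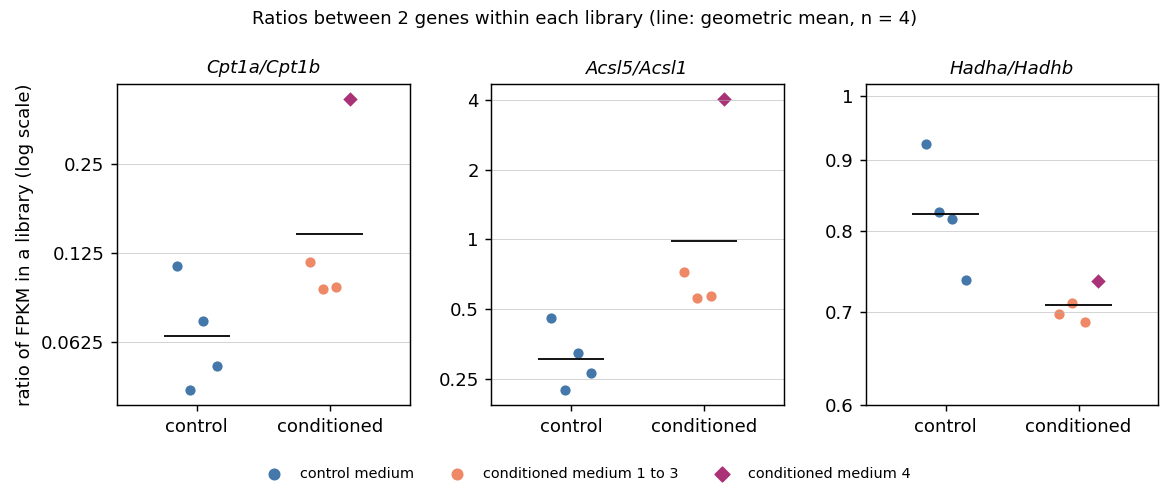
Ratio of FPKM between a pair of genes within each library, on logarithmic axes, for Cpt1a to Cpt1b, Acsl5 to Acsl1 and Hadha to Hadhb, with control libraries in blue, conditioned-medium replicates 1 to 3 in orange, replicate 4 as a purple diamond and lines at the geometric means (n = 4). The Acsl5 to Acsl1 ratio is 0.222 to 0.456 in control and 0.557 to 4.06 in conditioned medium, and the Hadha to Hadhb ratio 0.737 to 0.924 and 0.688 to 0.736.

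The transcript table divides Acsl1 between isoforms from different start sites, of which Acsl1-201 begins at position 46471037 and Acsl1-203 at position 46490966 of chromosome 8, 19929 bases apart (GRCm38, plus strand). The 250 bases before each start are shown because the isoforms did not follow each other across the libraries. They are RefSeq sequence on GRCm38.p6, chr8:46470787-46471036 and chr8:46490716-46490965, and capitals mark the letters GGGCGG or their reverse complement.
Acsl1-201 upstream: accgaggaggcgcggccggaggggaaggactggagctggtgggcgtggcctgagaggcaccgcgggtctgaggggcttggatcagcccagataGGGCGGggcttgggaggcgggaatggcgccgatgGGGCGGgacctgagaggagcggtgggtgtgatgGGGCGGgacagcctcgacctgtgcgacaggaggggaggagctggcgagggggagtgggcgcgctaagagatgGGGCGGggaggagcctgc
Acsl1-203 upstream: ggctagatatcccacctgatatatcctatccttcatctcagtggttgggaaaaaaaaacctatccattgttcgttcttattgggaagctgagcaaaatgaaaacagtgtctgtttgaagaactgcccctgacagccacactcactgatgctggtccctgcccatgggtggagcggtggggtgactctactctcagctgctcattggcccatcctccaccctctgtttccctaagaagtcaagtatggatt
The sequence before Acsl1-201 is 72% G and C and holds GGGCGG 4 times, and that before Acsl1-203 is 48.4% G and C and holds it 0 times. On either strand GGGCGG occurs in the same window of 35.4% of all 27025 genes with a promoter entry, and in 20 of the 30 members with one. A match is a description of the letters only.

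Acsl1-201 was at 19.0, 30.5, 24.1 and 32.1 FPKM in control and at 21.5, 18.0, 18.8 and 13.0 FPKM in conditioned medium. Acsl1-203, the more abundant of the pair in control replicates 1 to 3, was at 43.8, 73.9, 61.6 and 31.8 FPKM in control and at 26.0, 48.5, 47.5 and 1.72 FPKM in conditioned medium. The low gene level of Acsl1 in conditioned-medium replicate 4 was thus mostly a low level of Acsl1-203. The Cd36 isoforms also moved apart in that library. Cd36-206 was at 119 FPKM there and at 73.6 to 114 FPKM in the other 7 libraries, while Cd36-203 was at 0.926 FPKM there and at 5.66 to 8.24 FPKM in the others. These isoforms were chosen after their values were seen, and isoform levels rest on how the estimation divided shared reads.

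**Figure D4:**
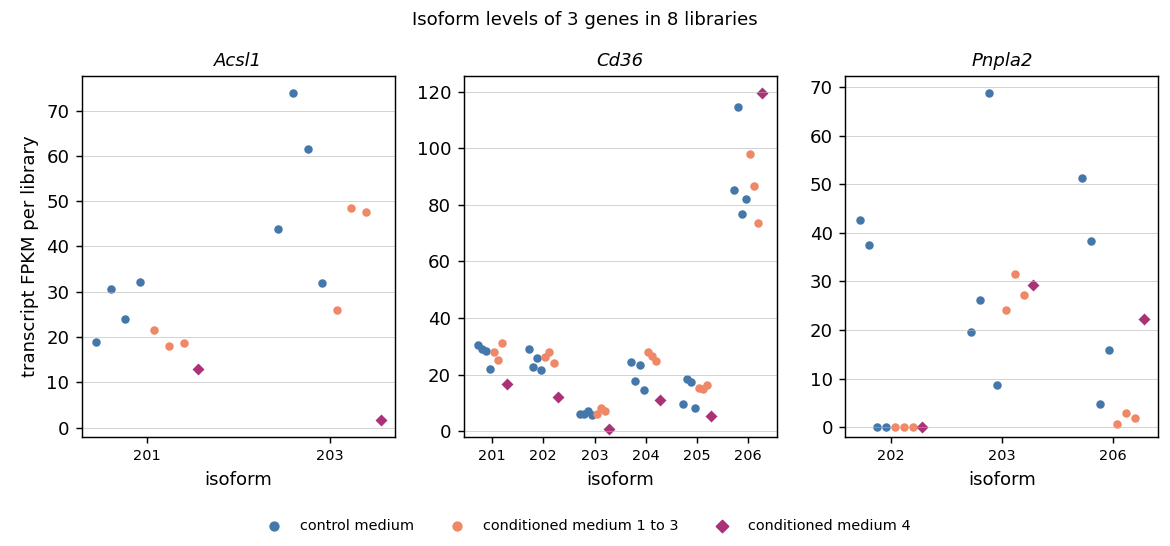
Transcript FPKM per library for the listed isoforms of Acsl1, Cd36 and Pnpla2 (x axis, isoform number), with control libraries in blue, conditioned-medium replicates 1 to 3 in orange and replicate 4 as a purple diamond, in replicate order from left to right. Acsl1-203 is at 1.72 FPKM and Cd36-206 stands at 119 FPKM in replicate 4, and Pnpla2-202 is listed at 0 in 6 of the 8 libraries.

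The carnitine shuttle begins with carnitine palmitoyltransferase 1 on the outer mitochondrial membrane, which has a muscle form, Cpt1b, and a liver form, Cpt1a. Cpt1b, the most abundant of the 6 shuttle genes, was at 58.3, 61.8, 58.7 and 50.9 FPKM in control and at 52.9, 51.7, 54.3 and 20.6 FPKM in conditioned medium. The first 3 conditioned-medium libraries lay within the control range and replicate 4 far below it. The log2 fold change of Cpt1b was -0.44 (95% interval -1.06 to 0.18, limma adjusted p = 0.671), and -0.11 (95% interval -0.33 to 0.10, limma adjusted p = 0.645) without that library. Cpt1b shares 81.4% of its exon bases with the gene model Gm44502 on the same strand, so its reads may have been divided with it. Cpt1a moved the other way in replicate 4. Its levels were 6.62, 2.65, 4.32 and 2.63 FPKM in control and 6.17, 4.87, 5.22 and 8.59 FPKM in conditioned medium. The ranges overlapped through control replicate 1, and the log2 fold change of Cpt1a was 0.56 (95% interval -0.005 to 1.12, limma adjusted p = 0.526), and 0.41 without replicate 4. The ratio of Cpt1a to Cpt1b was 0.0428 to 0.113 in control, 0.0943 to 0.117 in the first 3 conditioned-medium replicates, and 0.418 in replicate 4 (exact two-sided permutation p = 0.0857, with 0.0286 the smallest that 70 arrangements allow). Cpt1a, like Acsl5, was highest in the libraries with the highest endothelial markers of each group, control replicate 1 and conditioned-medium replicate 4. The median over all genes was also highest of the control libraries in replicate 1 (0.19), but was -0.27 in conditioned-medium replicate 4. The part of other cells in the level of Cpt1a was not tested.

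Slc22a5, which encodes the carnitine transporter OCTN2 of the plasma membrane, was at 4.07, 2.51, 3.10 and 1.63 FPKM in control and at 3.81, 3.69, 3.65 and 2.996 FPKM in conditioned medium. All conditioned-medium values lay within the control range, which was the wider, and the log2 fold change of Slc22a5 was 0.28 (95% interval -0.16 to 0.72, limma adjusted p = 0.706). It was -0.01 when control replicates 2 and 4 were left out, which was decided after seeing the data. Slc22a5 shares 13.7% of its 100-base words with its paralog Slc22a21. Cpt2, which encodes the transferase of the inner membrane, had a log2 fold change of -0.45, Crat, which encodes carnitine acetyltransferase, of -0.37, and Mlycd, which encodes the decarboxylase that removes the CPT1 inhibitor malonyl-CoA, of -0.28. Without conditioned-medium replicate 4 these were -0.20, -0.11 and -0.01.

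The acyl-CoA dehydrogenases take the first electrons from the acyl chain and pass them to the electron transfer flavoprotein (ETF), whose subunits are encoded by Etfa and Etfb, and from there to Etfdh. All 7 genes of this group had log2 fold changes below 0, from -0.31 to -0.44 with all 8 libraries. Without conditioned-medium replicate 4 they ran from -0.01 (Acads) to -0.16 (Etfdh). They stayed below 0 in every alternative run, and none passed the test. Acadl, which encodes the long-chain dehydrogenase, was the most abundant. It was at 308, 402, 359 and 318 FPKM in control and at 310, 327, 326 and 135 FPKM in conditioned medium. Conditioned-medium replicates 1 to 3 lay inside the control range, and the log2 fold change was -0.41 (95% interval -1.02 to 0.20, limma adjusted p = 0.697) with replicate 4 and -0.10 (95% interval -0.35 to 0.14, limma adjusted p = 0.697) without. The medians of the 7 genes were -0.40 and -0.10. Acadvl, the very long-chain enzyme, had a log2 fold change of -0.32, Acadm, the medium-chain enzyme, of -0.40 and Acads, the short-chain enzyme, of -0.31, so the enzymes of all chain lengths had similar values. Etfa, Etfb and Etfdh had -0.41, -0.38 and -0.44. Acadvl shares 42.9% of its exon bases with Dvl2 on the opposite strand, and Etfb 53.0% with Gm45233 on the same strand. The library kit keeps strand, but whether the estimation used it is not stated in the labels or methods.

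**Figure D5:**
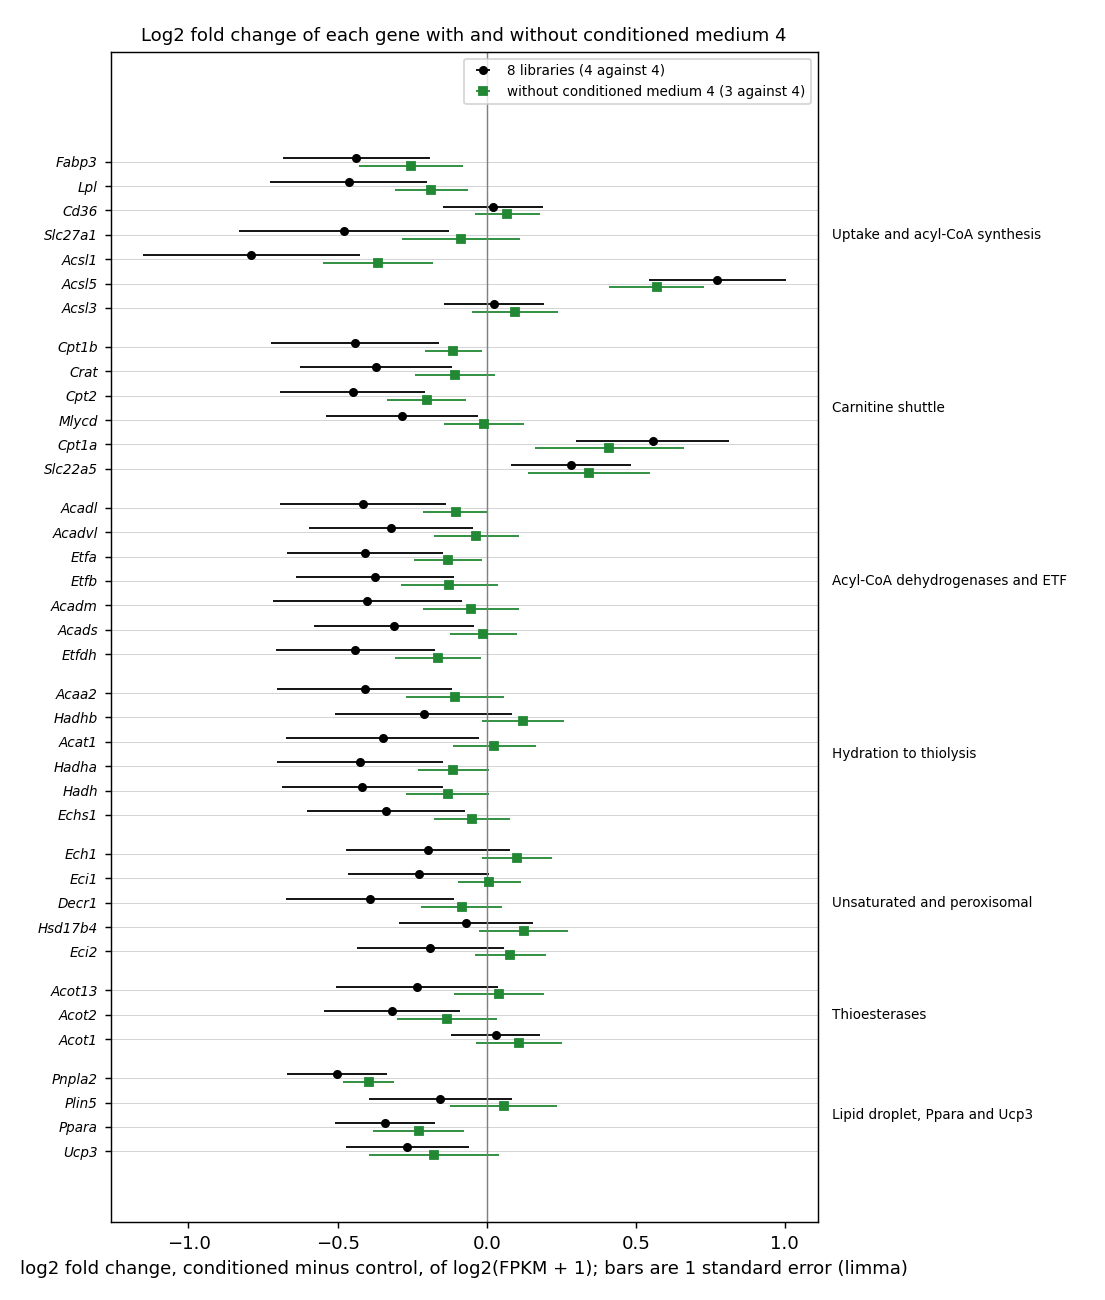
Log2 fold change of each of the 38 genes (rows, grouped by role), conditioned minus control medium on the log2(FPKM + 1) scale, with all 8 libraries (black circles) and without conditioned-medium replicate 4 (green squares), and bars of 1 standard error from limma. Without that library the median moves from -0.34 to -0.07, while Acsl5 stays at 0.57 and Pnpla2 at -0.40.

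The steps from hydration to thiolysis gave much the same picture, as the plot of log2 fold changes shows. Acaa2, which encodes the mitochondrial thiolase, was at 208, 337, 280 and 285 FPKM in control and at 213, 268, 288 and 109 FPKM in conditioned medium. Replicate 4 lay below all other libraries and the remaining 3 inside the control range, and the log2 fold change of -0.41 (95% interval -1.05 to 0.23, limma adjusted p = 0.707) became -0.11 without it. The other 5 genes of the group had log2 fold changes of -0.42 for Hadha, -0.42 for Hadh, -0.35 for Acat1, -0.34 for Echs1 and -0.21 for Hadhb. Without replicate 4 the values of Hadhb and Acat1 turned to 0.12 and 0.03. For Echs1 the gene table gives 10.8 to 28.5 FPKM and the table of transcripts from 56.7 to 151 FPKM for its 1 listed isoform, so levels of different genes depend on the length that the gene value was scaled by.

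Hadha and Hadhb encode the alpha and beta subunits of the mitochondrial trifunctional protein and are transcribed in opposite directions from start sites 85 bases apart. The interval between them, chr5:30155163-30155247 of GRCm38, is shown on the plus strand, toward Hadhb, because both genes start at its ends. Capitals mark GGGCGG, which occurs 2 times, and 69.4% of the bases are G or C.
Hadha and Hadhb interval: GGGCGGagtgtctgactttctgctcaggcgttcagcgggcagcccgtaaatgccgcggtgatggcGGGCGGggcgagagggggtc
The ratio of Hadha to Hadhb, chosen after the values were seen, was 0.924, 0.825, 0.816 and 0.737 in control and 0.698, 0.710, 0.688 and 0.736 in conditioned medium. The groups were only just apart, since conditioned-medium replicate 4, low for both genes, was at 0.736 and control replicate 4 at 0.737. The listed isoforms of Hadha and Hadhb summed to 146 and 347 FPKM in control replicate 4. In conditioned-medium replicate 1 they summed to 150 and 352 FPKM, so with summed transcripts the ratios of the groups overlapped. The log2 ratio differed by -0.22 and by -0.24 without replicate 4, and a pair picked that way gets no test. Hadhb shares 46.0% of its 100-base words with the pseudogenes Gm13910 and Gm9108, and the part of reads divided with these in the ratio was not tested.

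Unsaturated fatty acids need further isomerases and a reductase, and very long chains are shortened in peroxisomes. Ech1, which encodes a dienoyl-CoA isomerase, was the most abundant of these 5 genes. It was at 210, 271, 246 and 278 FPKM in control and at 245, 274, 287 and 116 FPKM in conditioned medium. Conditioned-medium replicate 3 was the highest of all libraries and replicate 4 the lowest, so the log2 fold change of -0.20 (95% interval -0.80 to 0.40, limma adjusted p = 0.842) turned to 0.10 without replicate 4. The isomerase genes Eci1 and Eci2 went from -0.23 and -0.19 to 0.01 and 0.08, and Hsd17b4, which encodes the peroxisomal bifunctional enzyme, from -0.07 to 0.12. Decr1, which encodes the dienoyl-CoA reductase, stayed below 0, at -0.39 and -0.08.

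The thioesterase genes encode enzymes that free fatty acids from coenzyme A again. Acot13, the most abundant, was at 130, 178, 158 and 212 FPKM in control and at 163, 168, 185 and 79.7 FPKM in conditioned medium. Apart from replicate 4 the conditioned-medium values lay inside the control range, and the log2 fold change was -0.23 (95% interval -0.83 to 0.36, limma adjusted p = 0.812), or 0.04 without that library. Acot2, of mitochondria, had a log2 fold change of -0.32 and its cytosolic paralog Acot1 one of 0.03 (-0.10 with quantile normalization), and they share 17.1% and 21.9% of their 100-base words with each other and with related genes. Acot1 was at 0.374 to 1.05 FPKM over the 8 libraries, a level at which adding 1 before the logarithm compresses differences.

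Of the 4 genes of lipid droplets and control, Pnpla2 was the one with a lower level in every conditioned-medium library. Pnpla2 (ENSMUSG00000025509.15, plus strand, chr7:141455198-141460743 in GRCm38) encodes adipose triglyceride lipase, which starts the breakdown of stored triglyceride. The control libraries were close to one another, at 62.8, 62.1, 62.4 and 59.99 FPKM, and those in conditioned medium were at 45.0, 46.0, 49.4 and 34.6 FPKM. The gap between the groups, from 49.4 to 59.99 FPKM, was wider than the spread of the control libraries but narrower than that of the conditioned-medium libraries. The standard deviations were 1.27 FPKM in control and 6.40 FPKM in conditioned medium. Pnpla2 had a log2 fold change of -0.50 (standard error 0.17, n = 4 and 4, 95% interval -0.87 to -0.14), which missed the threshold (limma adjusted p = 0.370). Without conditioned-medium replicate 4 it was -0.40 (standard error 0.09, limma adjusted p = 0.1003), and with that library left out and each library rescaled to the same nuclear-encoded sum it was -0.43 (limma adjusted p = 0.0436). It was the 1 member lower at an adjusted p under 0.05 in that setting. Over all alternatives the adjusted p of Pnpla2 ranged from 0.0120 with limma array weights to 0.968 without control replicates 2 and 4, where the unadjusted p was 0.0502 (limma). In replicate 4 Pnpla2 was at 73.9% of the mean of the other conditioned-medium libraries, and at 112% after the same rescaling, where the median member was at 67.7%.

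The isoform table did not give a stable account of Pnpla2. Pnpla2-202 was at 42.7 and 37.5 FPKM in control replicates 1 and 2 and is listed at 0 in the other 6 libraries. The 3 listed isoforms summed to 114, 102, 73.5 and 24.5 FPKM in control and to 24.8, 34.4, 29.1 and 51.5 FPKM in conditioned medium, although the gene values differed by less than 3 FPKM among the control libraries. With transcript FPKM summed per gene, the groups therefore overlapped.

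Plin5, which encodes the droplet protein perilipin 5 that binds this lipase, was at -0.16 on the log2 scale, or 0.06 without conditioned-medium replicate 4. The ratio of Pnpla2 to Plin5 was 7.65, 9.46, 11.03 and 12.5 in control and 8.35, 6.91, 6.51 and 10.96 in conditioned medium, and the ranges overlapped. Ppara itself was low. It was at 1.47, 1.22, 1.54 and 0.694 FPKM in control and at 0.851, 0.832, 0.963 and 0.372 FPKM in conditioned medium. Control replicate 4 was below conditioned-medium replicates 1 to 3 and the other 3 control libraries were above them, and the log2 fold change of Ppara was -0.34 (95% interval -0.71 to 0.02, limma adjusted p = 0.555), or -0.23 without conditioned-medium replicate 4. Ucp3, which encodes the uncoupling protein of muscle and is a PPARalpha target, had a log2 fold change of -0.27 and levels of 0.212 to 1.70 FPKM.

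PPARalpha and its partner RXR bind repeats of the letters AGGTCA spaced by 1 base. The 250 bases before the RefSeq start held AGGTCA on either strand in 7 of the 30 members with a promoter entry, Acadm, Acadvl, Cd36, Cpt1a, Echs1, Plin5 and Ucp3, or 23.3%, against 15.8% of all 27025 genes. The letters AGGTCANAGGTCA were found in 0 members and in 0.0407% of all genes, which covers this window and exact letters only and says nothing of binding. The windows of 3 members that the results describe are shown, from RefSeq on GRCm38.p6, read toward the gene with AGGTCA or its reverse complement in capitals (Cpt1a chr19:3323190-3323229, plus strand, Cd36 chr5:17836102-17836141 and Acadvl chr11:70015493-70015532, both minus strand).
Cpt1a window: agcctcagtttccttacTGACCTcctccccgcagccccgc
Cd36 window: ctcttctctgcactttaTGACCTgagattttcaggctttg
Acadvl window: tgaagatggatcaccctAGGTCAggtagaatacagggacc
These 3 genes had log2 fold changes of 0.56, 0.02 and -0.32 between the media. No promoter entry was found for Acaa2, Acat1, Acot13, Cpt1b, Crat, Decr1, Hsd17b4 and Lpl.

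Of 124 measured entries of other genes of the pathway, 0 were higher and 0 were lower by the adjusted limma test (0.554% and 0% of all genes). Unadjusted, 7 were higher and 5 lower (8.78% and 0.845% of all genes, shares that also apply to each list below). The median log2 fold change was -0.13 (0.02 over all genes). It was 0.04 when conditioned-medium replicate 4 was left out (0.12 over all genes). Among PPAR targets outside oxidation (14 of 20 measured, 3 higher and 1 lower unadjusted), Angptl4, which encodes a secreted inhibitor of lipoprotein lipase, was at 3.39, 2.03, 2.18 and 2.48 FPKM in control and at 6.15, 5.05, 3.93 and 9.84 FPKM in conditioned medium. The groups did not overlap, and the log2 fold change of Angptl4 was 0.99 (standard error 0.24, limma adjusted p = 0.143) with all libraries and 0.78 (limma adjusted p = 0.138) without replicate 4. Pdk4, the most abundant of this list, encodes a kinase that turns off pyruvate dehydrogenase and so favours fatty acid use. It was at 59.8, 73.4, 61.0 and 53.8 FPKM in control and at 50.5, 48.5, 46.3 and 46.3 FPKM in conditioned medium, all below the control libraries. The log2 fold change of Pdk4 was -0.36 (limma adjusted p = 0.517) and -0.34 without replicate 4, so it did not share that library's low values. Ucp2, which encodes an uncoupling protein of many cell types, had a log2 fold change of 0.47 (limma adjusted p = 0.455).

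Other genes of uptake and activation (15 of 19 measured) had 3 entries higher and 1 lower unadjusted (8.78% and 0.845% of all genes). Gpihbp1, which encodes the endothelial anchor of lipoprotein lipase, had a log2 fold change of 0.57, Fabp5, a fatty acid-binding protein gene of endothelium and macrophages, 0.70, and Acsl4, a synthetase gene for arachidonate, 0.41 (limma adjusted p = 0.508, 0.516 and 0.518). Vldlr, which encodes a lipoprotein receptor, was the lower one, at 12.2, 15.1, 13.4 and 12.2 FPKM in control and 9.17, 9.29, 9.22 and 1.85 FPKM in conditioned medium. The groups did not overlap, and its log2 fold change was -0.93 (limma adjusted p = 0.453), or -0.47 (limma adjusted p = 0.157) without replicate 4. Got2, the most abundant of this list and better known as a mitochondrial transaminase, was at -0.35.

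In the remaining lists few genes stood out, again beside 8.78% of all genes higher and 0.845% lower unadjusted. Of PPARs and their coregulators (28 of 30 measured, 0 higher and 2 lower unadjusted), Ppargc1a, which encodes a coactivator of mitochondrial gene transcription, had a log2 fold change of -0.64 and Rxrg, a partner receptor gene, one of -0.50 (limma adjusted p = 0.455 and 0.4996), against -0.38 and -0.31 without replicate 4. The list also holds genes of AMP-activated protein kinase, which are neither PPARs nor coregulators. One of these, Prkag1, was the most abundant of the list, at -0.05 (0.11 without replicate 4). Of other mitochondrial oxidation genes (22 entries of 21 of 27 genes), Bdh1, a ketone body enzyme gene, was lower unadjusted, with a log2 fold change of -0.69 (limma adjusted p = 0.434), and Oxct1, the most abundant and also of ketone use, was at -0.43. Of other carnitine genes (8 of 10 measured), Cpt1c was higher unadjusted at 0.36 and Slc25a20, the carrier of the shuttle and the most abundant, was at -0.43 (limma adjusted p = 0.480 and 0.611). Of genes of droplets and triglyceride (22 of 26 measured), Hilpda, which encodes an inhibitor of the lipase made by Pnpla2, was higher unadjusted at 0.56 (limma adjusted p = 0.507), and Hsdl2, the most abundant, was at -0.32. None of 22 measured peroxisomal genes (28 listed) passed even the unadjusted threshold, with Phyh, the most abundant, at -0.41.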

How the data were processed

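The authors made the deposited FPKM, for genes and for transcripts, from stranded RNA libraries by trimming with cutadapt, alignment with HISAT2 to GRCm38, abundance estimation with StringTie and export with Ballgown. Versions, annotation release and any scaling beyond FPKM: not given in the sources used here. The gene table holds 11367 protein-coding entries, with 10 symbols entered 2 times and kept apart, and 1 further line is not reported here. Low FPKM were not whole multiples of 1 read (the best mean cosine per library was 0.112 to 0.193, against 1 if reads were whole), so depth is unknown and precision rests on the spread between libraries.

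Media were compared in R 4.3.3 with the limma package, version 3.58.1, fitted to log2(FPKM + 1) with a variance trend, two-sided, and Benjamini-Hochberg adjustment over all entries, without a further filter on low values. Log2 fold changes on this scale understate changes of low genes. The ratio of Cpt1a to Cpt1b was compared by exact permutation over 70 arrangements. Scripts were tested on simulated data.

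The members, lists and tests were chosen with earlier results of these data known. Values per library are given for members with an unadjusted p under 0.05, the most abundant of each role group, the 3 highest and the 3 lowest log2 fold changes, and Ppara, Cd36, Lpl, Cpt1a and Cpt1b. Other pathway genes named are the most abundant of each list and up to 3 with an unadjusted p under 0.05. Isoforms and the 3 other ratios were picked after their values were seen and were not tested. Shared 100-base words and exon overlaps were counted in the GENCODE annotation provided for GRCm38. Alternatives changed the pseudocount, filter, scaling, test, library weights, replicate block, gene summary, fold measure and the libraries included. The labels give both groups the numbers 1 to 4 but do not say that they pair libraries. No 2 libraries held identical values.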

Additional observations from a re-analysis of the deposited data

Results flagged for a closer look

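In 76 sets of 4 libraries, 1 for each of the 38 genes in each medium, the highest or lowest library was compared with its nearest neighbour by Dixon's 95% limit, which chance passes in about 1 of 20 sets. It was passed in 9 sets, and in all 9 the library was conditioned-medium replicate 4. In 8 of them that library was the lowest, at 135 FPKM for Acadl, 88.6 FPKM for Lpl, 45.0 FPKM for Hadhb, 33.1 FPKM for Hadha, 20.6 FPKM for Cpt1b, 14.9 FPKM for Crat, 11.3 FPKM for Hsd17b4 and 4.97 FPKM for Eci2. For Acsl5 it was the highest, at 22.9 FPKM. The sets are not independent, since all come from the same 8 libraries.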

How the results depend on the processing

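Of 757 values of single members under 20 alternatives, 713 kept their direction and their side of the threshold, 3 passed it and 41 changed sign, in 12 members, and the other 26 members never changed sign. The cause of the changes was not tested. The 63 genes higher over all genes were 29 when both group means had to reach 1 FPKM, 0 in the F test (644 at an unadjusted p under 0.05), 882 with array weights and 31 (without control replicate 2) to 110 (without control replicate 1) when 1 library was left out, with 35 to 41 without control replicate 4 or conditioned-medium replicate 1, 2 or 3. The genes lower, 0 with limma (96 at an unadjusted p under 0.05), were 1 with a pseudocount of 0.1, with median-of-ratios size factors or with summed transcripts, 2 with quantile normalization, 51 with array weights, 3 with equal nuclear-encoded sums and no conditioned-medium replicate 4, and 0 to 2 when 1 library was left out. With array weights 1 member passed the adjusted p above (Acsl5, 0.52; 7.76% of all genes) and 1 below (Pnpla2, -0.40; 0.449%), and with equal nuclear-encoded sums and no conditioned-medium replicate 4 Pnpla2 was the 1 below (-0.43; 0.0264%).

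At an unadjusted p under 0.05 the members lower (with the share of all genes lower in the same fit) were 3 (1.65%) with equal nuclear-encoded sums, 7 (6.02%) with median-of-ratios size factors, 6 (6.19%) with quantile normalization, 6 (11.7%) in the F test, 5 (2.44%) with array weights and 1 to 2 (0.396% to 1.45%) when 1 library was left out, with 2 without control replicate 1 (1.06%) or 4 (0.669%) or conditioned-medium replicate 2 (1.27%) or 3 (1.45%). Those higher were 3 with array weights (24.7% of all genes) and 1 to 3 (4.48% to 15.8%) when 1 library was left out, with 3 without control replicate 1 (15.8%) and 2 without conditioned-medium replicate 2 (7.24%). Replicate numbers did not show pairing (correlations of deviations of 0.047, 0.26, -0.18 and 0.056), and with them as a replicate block 2 members were higher and 4 lower (10.6% and 1.96% of all genes). Leaving out control replicates 2 and 4, chosen after seeing the data, left 2 genes above and 1 below by the adjusted test and, unadjusted, 0 members higher (1.94% of all genes) and 1 lower (0.326%), which was Ppara (-0.53) and not Pnpla2. The median of the members was -0.46 to -0.068 when 1 library was left out.

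Signs of log2 fold changes turned as follows. Array weights gave Plin5 0.11, Hadhb 0.020, Acot13 0.038, Ech1 0.090, Eci1 0.031, Hsd17b4 0.11 and Eci2 0.021. Equal nuclear-encoded sums gave Hsd17b4 0.032, and without conditioned-medium replicate 4 as well Plin5 0.024, Hadhb 0.082, Acot13 0.0028, Ech1 0.063, Hsd17b4 0.087 and Eci2 0.044. Median-of-ratios size factors gave Cd36 -0.012 and Acsl3 -0.0079, quantile normalization Acot1 -0.10 and Acsl3 -0.051, the F test Acot1 -0.046 and Cd36 -0.028, and summed transcripts Acot1 -0.011 and Acsl3 -0.026. Without control replicates 2 and 4 Slc22a5 was -0.010 and Acot1 -0.034. When 1 library was left out, Plin5 ran from -0.29 to 0.057, Hadhb from -0.34 to 0.12, Acat1 from -0.52 to 0.026, Acot13 from -0.36 to 0.042, Ech1 from -0.33 to 0.10, Eci1 from -0.35 to 0.0090, Eci2 from -0.29 to 0.080, Hsd17b4 from -0.19 to 0.12, Acot1 from -0.084 to 0.11, Acsl3 from -0.057 to 0.095 and Cd36 from -0.050 to 0.079. Except for Cd36, the highest of each of these ranges came without conditioned-medium replicate 4. Depth being unknown, differences in low genes such as Acot1, Ucp3 and Ppara could not be set against counting error.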
